A study of Mus musculus with 12 samples.

Results

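The genes that carry iron into macrophages, store it and pass it out again were followed across every library of the series: Tfrc, Slc11a1, Slc11a2, Slc40a1, Fth1, Ftl1, Hmox1, Cp, Hebp1 and Ireb2. They were taken by gene symbol and not by their values, all 10 were found among the 14098 genes of the deposited table, and all 10 passed the filter on low values together with 11194 genes in all. The libraries come from bone marrow-derived macrophages (BMDM), which are macrophages grown in culture from the marrow of C57Bl/6 mice of both sexes aged 8 to 10 weeks, either WT or lacking the kinase gene Camkk2 (Camkk2-/-, here KO). The cells were embedded in a hydrogel of collagen and hyaluronic acid that was left soft, left soft with IL-4 added (soft+IL-4), or stiffened by UV crosslinking 24 h after embedding, and they were cultured for 48 h. By the study's methods the stiff gel also held more collagen than the soft one and alone received the photoinitiator and the UV light, so stiffness cannot be told apart from these in the RNA libraries. The study reports controls in which UV light changed neither viability nor phenotype, and more collagen without crosslinking did not change phenotype. No library of this series holds such a control. Each of the 6 groups (WT soft, WT soft+IL-4, WT stiff, KO soft, KO soft+IL-4 and KO stiff) has 2 libraries, which the submitters call biological replicates. In each genotype, the titles of both soft+IL-4 libraries carry the same number after the word Soft. Whether such a pair came from a single soft culture is not stated, and the tests below treat its libraries as independent. The soft matrix without IL-4 is the control culture. All cells were released from the gel with collagenase before RNA was taken, in all groups alike. The labels name no tissue or promoter that limits the Camkk2 deletion, and the study calls the Camkk2-/- mice of its animal experiments germline.

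Macrophages handle more iron than most cells, because they take up old red blood cells and return the metal to the blood. Transferrin receptor (Tfrc) brings in transferrin-bound iron, the divalent metal carriers Slc11a1 (NRAMP1) and Slc11a2 (DMT1) move it out of phagosomes and endosomes, and heme oxygenase (Hmox1) frees it from heme. Ferritin, a shell built of heavy (Fth1) and light (Ftl1) chains, holds it, and ferroportin (Slc40a1) exports it with the help of ferroxidases such as ceruloplasmin (Cp). Iron-regulatory proteins, of which Ireb2 encodes one, bind a hairpin called the iron-responsive element (IRE) in several of these transcripts. In a 5′ UTR such binding blocks translation, and in the 3′ UTR of Tfrc it protects the transcript from decay. RNA levels therefore do not measure the first kind of control.

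The IRE hairpins are shown because transcripts that carry 1 in the 5′ UTR and transcripts that carry them in the 3′ UTR are controlled in different ways. The pattern searched in the UTRs of GENCODE vM21 transcripts (GRCm38, the mm10 build) was a C, a stem of 5 bases, the loop CAGTGN with no G in the last place, and 5 bases that pair with the stem, read on the transcript strand only. The matches are printed 5′ to 3′ in DNA letters with 6 flanking bases on either side, and the loop is in capitals.
Tfrc 3′ UTR, chr16:32631219-32631247, plus strand: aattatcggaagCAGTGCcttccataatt
Tfrc 3′ UTR, chr16:32631598-32631626, plus strand: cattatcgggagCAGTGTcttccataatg
Tfrc 3′ UTR, chr16:32631663-32631691, plus strand: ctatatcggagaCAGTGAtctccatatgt
Tfrc 3′ UTR, chr16:32631710-32631738, plus strand: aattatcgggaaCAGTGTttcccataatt
Slc40a1 5′ UTR, chr1:45925465-45925493, minus strand: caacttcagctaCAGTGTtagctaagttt
Fth1 5′ UTR, chr19:9982732-9982760, plus strand: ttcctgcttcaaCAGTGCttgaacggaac
Ftl1 5′ UTR, chr7:45459779-45459807, minus strand: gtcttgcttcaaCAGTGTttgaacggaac
Tfrc thus held 4 matches in its 3′ UTR, while Slc40a1, Fth1 and Ftl1 held 1 each in the 5′ UTR. The other 6 members held none of these letters, which says nothing about the proteins that may bind them. The C before the stem is left unpaired, but the pattern allows no bulge within the 5 paired bases. A form of Slc11a2 is known to carry an IRE with such a bulge in its 3′ UTR, which this search passes over. Any other IRE that departs from the pattern is also passed over, in Tfrc as elsewhere. Over all genes, 21 of 20561 with a 5′ UTR (0.102%) and 98 of 20954 with a 3′ UTR (0.468%) held a match.

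The values are TPM, in which reads are divided by gene length and scaled to the same total in each library. They carry no read counts. The study's methods give an intended output, but the depth reached by each library is unknown here, and counting error cannot be stated. Genes were tested with limma on log2(TPM + 1), a scale that understates the change of low genes, and a gene counts as changed below an adjusted p of 0.05 (Benjamini-Hochberg method). With 2 libraries a group, p-values rest on the spread shared over the 6 groups. The deleted gene went against the label in 3 libraries: the library labelled WT soft 2 held 11.7 TPM of Camkk2, that labelled KO soft 1 held 46.6 and that labelled KO stiff 1 held 37.7, while the other WT libraries held 23.3 to 44.2 TPM and the other KO libraries 8.54 to 11.5 TPM. All libraries were kept in their labelled groups, and every genotype comparison below rests on those labels. WT stiff 1 also stood apart from WT stiff 2 in several members, as its values show, though less so in Tfrc. It did so in genes outside the members too, such as Cd14 (412 against 151 TPM) and Prdx1 (589 against 3110 TPM). WT stiff 2 lay close to WT soft+IL-4, where Cd14 was at 161 and 152 TPM. Its Fth1 was at 22134 TPM, against 21926 and 22279 in WT soft+IL-4. Each WT stiff mean below averages these 2 unlike libraries. Replicate 1 of every group had 10.7% to 13.4% of its genes at 0, and replicate 2 had 5.90% to 7.54%.

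All 8 macrophage markers of a hand-written list were in the table. Their summed TPM was lower in the groups where Tfrc was above 120 TPM. It was 51475 to 54862 in WT soft and 52143 to 57980 in KO soft, 25082 to 25557 in WT soft+IL-4, 23571 to 23922 in KO soft+IL-4, 23619 to 24708 in WT stiff and 45977 to 48589 in KO stiff. Most of it was Lyz2, the lysozyme gene, at 45849 to 51543 TPM in soft, 40543 to 42671 in KO stiff and 19076 to 21251 in the other 3 groups. Of the 8 markers, 6 passed as lower with IL-4 in WT, 4 with IL-4 in KO, 5 in WT stiff against WT soft and 0 in KO stiff against KO soft. The shares of all genes past the threshold in either direction were 10.7%, 10.3%, 10.6% and 0.0447%. Adgre1 went from 888 and 1072 TPM in WT soft to 460 and 482 in WT soft+IL-4 and 538 and 476 in WT stiff. Cd68 did not follow, staying between 1813 and 2123 TPM in all 12 libraries. Itgam was at 299 to 330 TPM with IL-4 and 343 to 414 in soft, and at 355 and 308 in WT stiff. The sum over 6 dendritic cell markers was 4.48 to 5.14 in WT soft, 12.2 to 12.8 in WT soft+IL-4 and 12.6 to 20.8 in WT stiff, most of it Ccr7, and 5.93 to 8.56 in KO soft, 9.84 to 11.3 in KO soft+IL-4 and 7.54 to 8.45 in KO stiff. The sum over the 8 neutrophil markers in the table was 123 to 218, and that over 5 B cell markers was at most 3.38. Of 10 erythroid markers 1 was in the table, at 0.466 TPM or less, of 5 T or NK cell markers 1 was, at 0.336 or less, and the sum over 5 fibroblast markers was at most 0.809. The part of these values in the results below was not tested, and fewer cells of a kind cannot be told apart from less RNA per cell.

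The 10 genes spanned a wide range of levels. Ftl1 and Fth1 were the highest, with means over the 12 libraries of 32469 and 26979 TPM, and together they made up 3.88% to 6.61% of all TPM. Hmox1 averaged 494 TPM, Slc11a1 283, Tfrc 83.6, Hebp1 53.9, Slc11a2 49.1, Ireb2 15.4, Slc40a1 7.40 and Cp 5.64. Slc40a1, Cp and Tfrc varied most between libraries, their highest value lying 19.5, 18.4 and 8.46 times above their lowest, and Ireb2 and Hmox1 varied least, at 1.29 and 1.38 times.

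**Figure D1:**
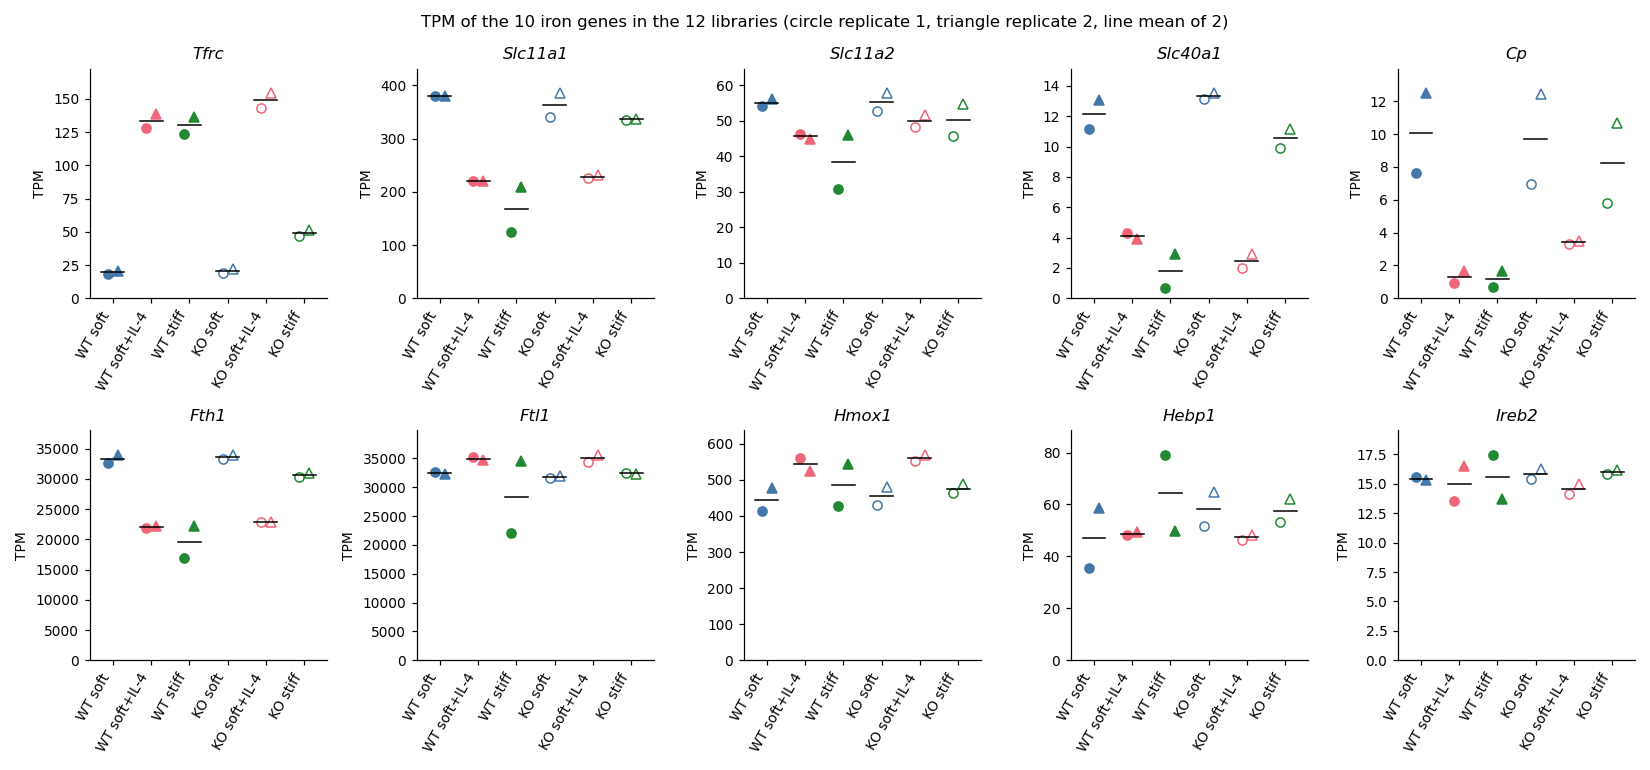
TPM (y axis, linear, from 0, scaled for each gene) of the 10 iron genes in each library, by group (x axis): circles are replicate 1, triangles replicate 2, filled symbols WT, open symbols KO, and the line is the mean of the 2 libraries. Tfrc is low in both soft groups (18.2 to 22.3 TPM), intermediate in KO stiff (46.7 and 51.7 TPM) and above 120 TPM elsewhere, while Slc40a1, Cp, Slc11a1 and Fth1 are high in soft and KO stiff and low in the other 3 groups.

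Tfrc, on chr16:32608920-32632794, had the largest log2 fold change among the 10 genes both with IL-4 and in the stiff matrix. In WT soft it stood at 18.2 and 20.8 TPM, and in WT soft+IL-4 at 128 and 139 TPM. KO soft held 18.8 and 22.3 TPM, and KO soft+IL-4 143 and 154 TPM. With IL-4 the receptor therefore rose in both genotypes with no overlap, by 2.71 (SE 0.116) on the log2 scale in WT (limma, adjusted p = 7.34e-06) and by 2.80 (SE 0.116) in KO (limma, adjusted p = 5.45e-06). In each of these comparisons it ranked 2 among all tested genes by p. The responses of the genotypes to IL-4 differed by 0.09 (SE 0.164), which did not pass (limma, adjusted p = 1).

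The stiff matrix, without added IL-4, was compared with the soft one to see how macrophages respond to stiffness. Tfrc was at 124 and 136 TPM in WT stiff, which overlaps WT soft+IL-4. In KO stiff it was at 46.7 and 51.7 TPM, above both KO soft libraries and below both WT stiff ones. It rose by 2.68 (SE 0.116) in WT (limma, adjusted p = 8.35e-06) and by 1.22 (SE 0.116) in KO (limma, adjusted p = 0.00942). The rise was smaller in KO than in WT by 1.45 on the log2 scale (SE 0.164), and this interaction passed the threshold (limma, adjusted p = 0.0101). Directly compared, KO stiff was below WT stiff by a log2 difference of -1.38 (SE 0.116, limma, adjusted p = 0.000631). These genotype results lean on the pooled spread: with only the groups compared in the model, the adjusted p in limma was 0.178 for KO stiff against WT stiff, 0.0856 for the interaction and 0.0752 for KO stiff against KO soft. Few genes of any kind passed in that setting: 0, 0 and 2 in these comparisons, and 23 in WT stiff against WT soft. Without the 3 libraries whose Camkk2 goes against the label, the limma adjusted p was 0.0401, 0.267 and 0.439 for the same comparisons, with log2 values of -1.31, -1.59 and 1.18. Leaving out KO soft 1, KO stiff 1 or KO stiff 2 also ended the call in KO stiff against KO soft, and leaving out KO stiff 2 or WT soft 1 ended that of the interaction (highest adjusted p in limma 0.0935 and 0.0521).

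In order of group means, Tfrc ran from WT soft (19.5 ± 1.83 TPM, SD, n = 2) and KO soft (20.5 ± 2.48) through KO stiff (49.2 ± 3.55) to WT stiff (130 ± 8.80), WT soft+IL-4 (133 ± 7.43) and KO soft+IL-4 (149 ± 7.63). The libraries of the 2 soft groups overlapped, as did those of WT stiff and WT soft+IL-4. KO soft+IL-4 lay above WT soft+IL-4 in both libraries, by 0.16 on the log2 scale (SE 0.116), which did not pass (limma, adjusted p = 1).

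The phagosomal carrier Slc11a1, known for its part in resistance to intracellular microbes, moved the other way. WT soft held 381 TPM in both libraries and WT soft+IL-4 220 TPM in both, a fall of 0.79 on the log2 scale (log2 fold change -0.79, SE 0.189, limma, adjusted p = 0.0278). In KO it went from 340 and 385 TPM to 225 and 232 TPM, which missed the threshold alone (log2 fold change -0.66, SE 0.189, limma, adjusted p = 0.0576). WT stiff 1 and 2 stood at 125 and 209 TPM, below every WT soft library (log2 fold change -1.23, SE 0.189, limma, adjusted p = 0.00345). KO stiff stayed close to KO soft, at 335 and 337 TPM (log2 fold change -0.11, SE 0.189, limma, adjusted p = 1), and was above WT stiff by 1.05 (SE 0.189, limma, adjusted p = 0.0136). Without WT stiff 1 the latter difference was 0.68, and its call was lost without KO stiff 1 or KO stiff 2, as was the IL-4 call in WT without any of its 4 libraries (highest adjusted p in limma 0.0951 and 0.146). With only the groups compared, both stiffness calls of Slc11a1 were lost (limma, adjusted p = 0.178 in WT and 0.396 between genotypes), as they were without the 3 libraries whose Camkk2 goes against the label (limma, adjusted p = 0.122 and 0.269).

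The endosomal carrier Slc11a2 passed the threshold in none of the 11 comparisons. It lay between 44.9 and 57.8 TPM in 11 libraries and at 30.8 TPM in WT stiff 1. The log2 fold change of WT stiff against WT soft was -0.54 (SE 0.167, limma, adjusted p = 0.0760), with 46.1 TPM in WT stiff 2.

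Slc40a1, the only known exporter of free iron from mammalian cells, was low in these cells and fell in each comparison that raised Tfrc, apart from stiff against soft in KO. WT soft held 11.2 and 13.1 TPM, WT soft+IL-4 held 4.29 and 3.93, and WT stiff 0.694 and 2.93. In KO the values were 13.1 and 13.5 in soft, 1.99 and 2.93 in soft+IL-4, and 9.92 and 11.2 in stiff. The soft libraries of both genotypes thus lay above all soft+IL-4 libraries and above both WT stiff libraries. With IL-4 the log2 fold change was -1.36 (SE 0.326) in WT (limma, adjusted p = 0.0280) and -2.06 (SE 0.326) in KO (limma, adjusted p = 0.00408). The WT call was lost with a pseudocount of 0.1 and without any of its 4 libraries (highest adjusted p in limma 0.156).
In the stiff matrix Slc40a1 fell by 2.34 on the log2 scale in WT (SE 0.326, limma, adjusted p = 0.00215). KO stiff against KO soft gave -0.31 (SE 0.326, limma, adjusted p = 1), and KO stiff exceeded WT stiff by 2.16 (SE 0.326, limma, adjusted p = 0.00642). The interaction of genotype and stiffness was 2.03 (SE 0.461) and missed the threshold (limma, adjusted p = 0.0987), so a difference between the genotypes in the stiffness response of Slc40a1 was not shown. WT stiff 1, at 0.694 TPM, is below the pseudocount, and without it the log2 fold change of WT stiff against WT soft was -1.74. The call between genotypes was lost without KO stiff 2 (limma, adjusted p = 0.0613), and with only the groups compared both calls in the stiff matrix were lost (limma, adjusted p = 0.142 in WT and 0.314 between genotypes). Without the 3 libraries of doubtful genotype these were at 0.113 and 0.176, and the IL-4 calls at 0.313 in WT and 0.125 in KO (limma, adjusted p), none of them past the threshold.

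Cp, the ferroxidase that loads exported iron onto transferrin, was the lowest of the 10. WT soft held 7.63 and 12.5 TPM, WT soft+IL-4 held 0.958 and 1.68, and WT stiff 0.678 and 1.69. In KO the values were 6.95 and 12.4 in soft, 3.33 and 3.48 in soft+IL-4, and 5.78 and 10.6 in stiff. Replicate 1 was below replicate 2 in each of the 6 groups, widely so in the soft ones, yet no library with IL-4 and no WT stiff library reached a soft one. Cp fell in WT with IL-4 (log2 fold change -2.24, SE 0.373, limma, adjusted p = 0.00563) and in WT stiff (-2.34, SE 0.373, limma, adjusted p = 0.00425). In KO the values were -1.23 with IL-4 (SE 0.373, limma, adjusted p = 0.0710) and -0.22 in the stiff matrix (SE 0.373, limma, adjusted p = 1). KO stiff exceeded WT stiff by 2.06 (SE 0.373, limma, adjusted p = 0.0140), and the interaction of 2.13 (SE 0.528) did not pass (limma, adjusted p = 0.128). With replicate number as a block in the model, the IL-4 change of Cp in KO (limma, adjusted p = 0.00788) and this interaction both passed. The labels do not say that the number marks a batch. The IL-4 call in WT was lost without WT soft 2 or WT soft+IL-4 1 and the call between genotypes without KO stiff 2 (highest adjusted p in limma 0.0605 and 0.120). With only the groups compared, the adjusted p of limma was 0.101 for WT stiff against WT soft and 0.272 between genotypes, and without the 3 libraries of doubtful genotype it was 0.0706 and 0.0764, and 0.0864 with IL-4 in WT.

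The ferritin chains did not move together. For Fth1, WT soft held 32573 and 33918 TPM, WT soft+IL-4 held 21926 and 22279, and WT stiff 16859 and 22134. In KO the values were 33234 and 33927 in soft, 22838 and 22818 in soft+IL-4, and 30299 and 30946 in stiff. The heavy chain was thus highest in both soft groups, a little lower in KO stiff, and lowest in the other 3 groups, with no overlap between these 3 levels. Its log2 fold change was -0.59 (SE 0.159) with IL-4 in WT (limma, adjusted p = 0.0447), -0.56 (SE 0.159) with IL-4 in KO (limma, adjusted p = 0.0574), and -0.78 (SE 0.159) in WT stiff (limma, adjusted p = 0.0138). KO stiff exceeded WT stiff by 0.66 (SE 0.159, limma, adjusted p = 0.0457), a call that held in 3 of 11 alternatives. Its other calls were no firmer: that with IL-4 in WT also held in 3 of 11, being lost without any of the 4 libraries (highest adjusted p in limma 0.237), and that in WT stiff in 5 of 11, being lost without WT soft 1 or WT soft 2 (highest adjusted p in limma 0.1004). Without the 3 libraries of doubtful genotype the limma adjusted p was 0.375 with IL-4 in WT, 0.254 in WT stiff and 0.446 between genotypes.
The light chain Ftl1 passed in none of the 11 comparisons. It was at 32622 and 32214 TPM in WT soft, 35222 and 34644 in WT soft+IL-4, 31634 and 31922 in KO soft, 34409 and 35560 in KO soft+IL-4 and 32476 and 32349 in KO stiff. WT stiff 1 was far below WT stiff 2, at 21971 against 34609 TPM. The log2 fold change with IL-4 was 0.11 (SE 0.203) in WT and 0.14 (SE 0.203) in KO. The annotation names 3 copies of Ftl1 (Ftl1-ps1, Ftl1-ps2 and Ftl2-ps), and how reads shared with them were counted is not given in the sources used here, so ferritin levels are uncertain in their scale.

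The ratio of Fth1 to Ftl1 TPM was computed in each library after the data were seen. It was 0.998 and 1.05 in WT soft, 0.622 and 0.643 in WT soft+IL-4, 1.05 and 1.06 in KO soft and 0.664 and 0.642 in KO soft+IL-4. Over both genotypes it averaged 1.04 ± 0.0290 (SD, n = 4) in soft and 0.643 ± 0.0169 (SD, n = 4) in soft+IL-4, and the groups did not overlap. No test is given, since the ratio was chosen for this difference. In WT stiff it was 0.767 and 0.640, and in KO stiff 0.933 and 0.957. As a ratio within a library, it shows an unequal change of the chains and does not say which of them moved.

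**Figure D2:**
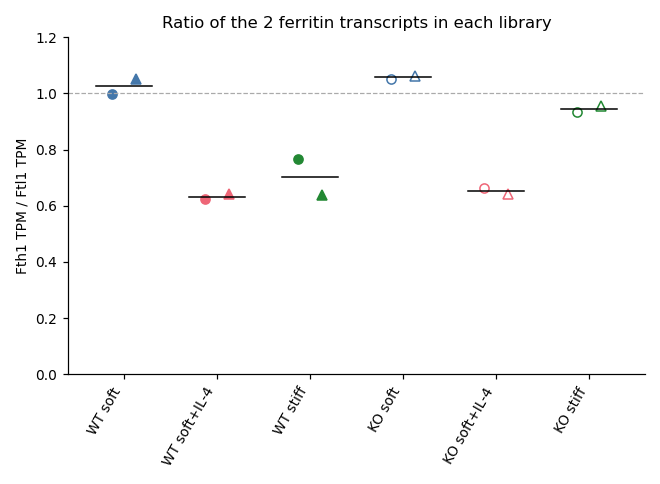
Ratio of Fth1 to Ftl1 TPM (y axis, from 0, no unit) in each library by group (x axis), with circles for replicate 1, triangles for replicate 2, filled symbols for WT, open symbols for KO, a line at the mean of 2 libraries and a dashed line at equal TPM. The soft libraries sit between 0.998 and 1.06, KO stiff at 0.933 and 0.957, and the soft+IL-4 and WT stiff libraries between 0.622 and 0.767.

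Hmox1, which opens the heme ring and releases its iron, was at 412 and 478 TPM in WT soft, 562 and 525 in WT soft+IL-4, 430 and 480 in KO soft and 553 and 569 in KO soft+IL-4. Every library with IL-4 lay above every soft one. The change missed the threshold in WT (log2 fold change 0.29, SE 0.126, limma, adjusted p = 0.188) and in KO (0.30, SE 0.126, limma, adjusted p = 0.175). It passed over both genotypes (0.30, SE 0.0893, limma, adjusted p = 0.0400), and this call was lost without any 1 of 7 of the 8 libraries (highest adjusted p in limma 0.135). The stiff libraries held 427 and 543 TPM in WT and 463 and 488 TPM in KO and passed in no comparison.

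The heme-binding protein gene Hebp1 and the iron sensor Ireb2 (iron-regulatory protein 2) passed in none of the 11 comparisons. Hebp1 ranged from 35.7 to 79.0 TPM, both extremes lying in WT replicates 1 (soft and stiff). Ireb2 ranged from 13.5 to 17.4 TPM. The log2 fold change of WT stiff against WT soft was 0.44 for Hebp1 (SE 0.253, limma, adjusted p = 0.337) and 0.00 for Ireb2 (0.0030, SE 0.137, limma, adjusted p = 0.991).

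Set against all genes, 5 of the 10 members were past the threshold with IL-4 in WT, where 10.7% of the tested genes were. With IL-4 in KO 2 members passed (Tfrc and Slc40a1), against 10.3% of all genes. Over both genotypes 6 passed (Tfrc and Hmox1 higher, Slc11a1, Slc40a1, Fth1 and Cp lower), against 22.9%. In WT stiff against WT soft 5 passed, the same 5 genes as with IL-4 in WT and in the same directions, against 10.6%. The IL-4 and stiff comparisons share their soft libraries, and so this sameness is not independent.
In KO stiff against KO soft 1 member passed, Tfrc, against 0.0447% of all genes, that is 5 genes in the whole table. The other 4 were Il4i1, Tmem26, Irf4 and Hebp2. Comparing KO stiff with WT stiff, 5 members passed (Tfrc lower, the other 4 higher in KO), against 4.93%. The interaction of genotype and stiffness passed for 1 member, Tfrc, against 0.974% of all genes.
In 4 comparisons neither a member nor any other gene passed in limma, so the share of all genes was 0%. At an unadjusted p under 0.05 these held 557 genes for WT stiff against WT soft+IL-4 (2 of them members, Slc40a1 and Slc11a1, both lower in WT stiff), 130 for KO against WT in soft (0 members), 233 for KO against WT in soft+IL-4 (1 member, Cp, higher in KO) and 165 for the interaction of genotype and IL-4 (0 members). The median log2 fold change of the 10 members was -0.16 with IL-4 in WT and -0.39 in WT stiff, beside -0.05 and 0.02 over all tested genes.

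**Figure D3:**
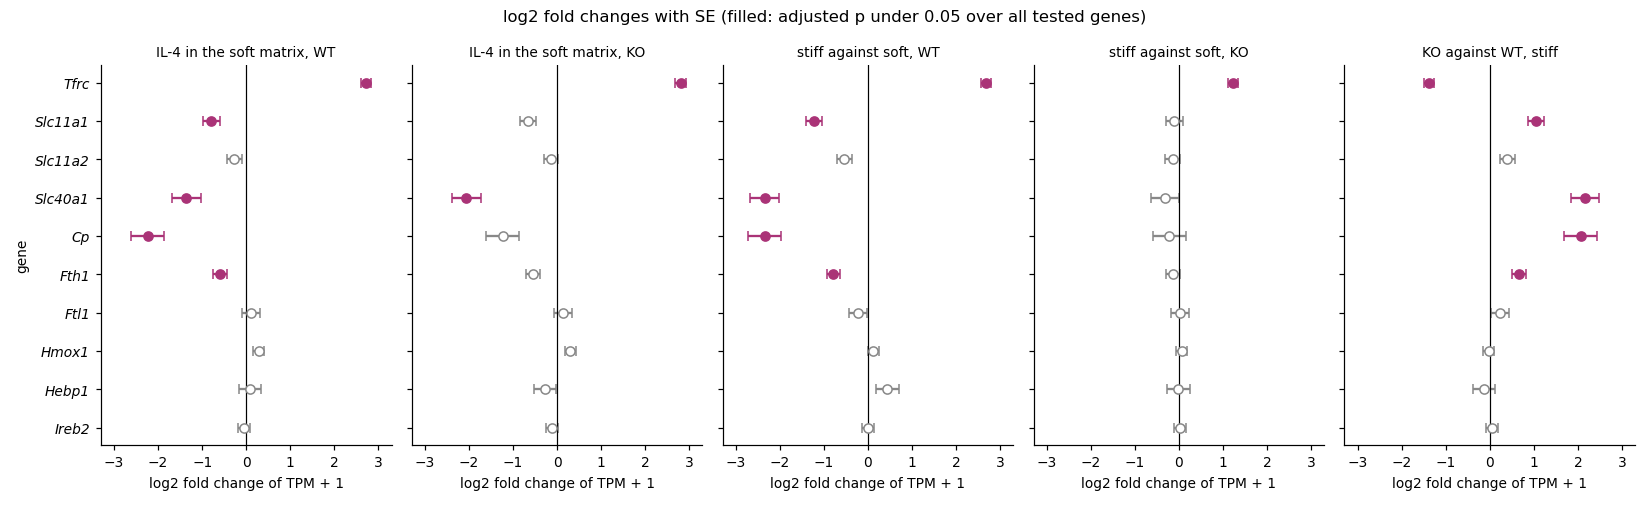
Log2 fold changes of TPM + 1 (x axis) with SE bars for the 10 genes (y axis) in 5 comparisons, 1 panel each, where filled symbols passed an adjusted p of 0.05 in limma over all tested genes. Tfrc passes in each panel, at 2.71, 2.80, 2.68, 1.22 and -1.38, and Ftl1, Slc11a2, Hmox1, Hebp1 and Ireb2 pass in none of the 5.

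A wider list of 80 other genes of iron and heme handling was read beside the 10, of which 61 could be tested. Of these, 8 passed with IL-4 in WT (4 higher, 4 lower), 10 with IL-4 in KO (5 and 5), 10 in WT stiff against WT soft (5 and 5), 1 in KO stiff against KO soft and 3 in KO stiff against WT stiff. As shares these are 13.1%, 16.4%, 16.4%, 1.64% and 4.92%, beside 10.7%, 10.3%, 10.6%, 0.0447% and 4.93% of all genes.
Hp encodes haptoglobin, which binds free hemoglobin. It was at 28.7 and 37.7 TPM in WT soft, 4.89 and 4.77 in WT soft+IL-4, 2.83 and 3.89 in WT stiff, 30.5 and 35.8 in KO soft, 5.22 and 4.53 in KO soft+IL-4 and 16.8 and 28.4 in KO stiff. It fell with IL-4 in WT and KO by 2.54 on the log2 scale in both (SE 0.238, limma, adjusted p = 0.000249 and 0.000253) and in WT stiff (log2 fold change -2.97, SE 0.238, limma, adjusted p = 9.94e-05). KO stiff exceeded WT stiff by 2.40 (SE 0.238, limma, adjusted p = 0.000958). Its interaction of genotype and stiffness, 2.39 (SE 0.337), passed (limma, adjusted p = 0.0156), but not without KO soft 1, KO stiff 2 or either WT soft library (highest adjusted p in limma 0.0885). With only the groups compared, the call between genotypes and the interaction of Hp were lost (limma, adjusted p = 0.201 and 0.104), and without the 3 libraries of doubtful genotype the interaction was (limma, adjusted p = 0.267).
Hebp2, a relative of Hebp1, was near the floor in soft, with 0.744 and 0.561 TPM in WT and 0.307 and 0.428 in KO. It stood at 13.9 and 12.3 TPM in WT soft+IL-4, 10.2 and 9.47 in KO soft+IL-4, 8.06 and 10.5 in WT stiff and 2.94 and 2.42 in KO stiff, an order of groups like that of Tfrc with KO stiff in between. It rose by 3.09 with IL-4 in WT, 2.99 in KO, 2.63 in WT stiff and 1.43 in KO stiff (SE 0.178 each, limma, adjusted p = 2.89e-05, 2.63e-05, 5.55e-05 and 0.0401). KO stiff lay below WT stiff (log2 difference -1.47, SE 0.178, limma, adjusted p = 0.00196). The call in KO stiff against KO soft was lost without any of its 4 libraries (highest adjusted p in limma 0.523). With only the groups compared, Hebp2 missed the threshold in WT stiff and between genotypes (limma, adjusted p = 0.0527 and 0.228), and without the 3 libraries of doubtful genotype the latter was at 0.0764 (limma, adjusted p).
Slc25a37 (mitoferrin 1, which takes iron into mitochondria) fell with IL-4, from 17.5 and 19.6 to 7.75 and 7.57 TPM in WT (log2 fold change -1.17, SE 0.166, limma, adjusted p = 0.00239), a call lost without the 3 libraries of doubtful genotype (limma, adjusted p = 0.114). Cisd1, a mitochondrial protein that holds an iron-sulfur cluster, rose in WT stiff, from 29.9 and 40.3 to 77.2 and 69.0 TPM (log2 fold change 1.05, SE 0.160, limma, adjusted p = 0.0034), a call lost with only the groups compared (limma, adjusted p = 0.136). Aco1, which encodes the other iron-regulatory protein, rose from 27.2 TPM in both WT soft libraries to 38.9 and 41.2 TPM with IL-4 (log2 fold change 0.54, SE 0.0873, limma, adjusted p = 0.0048), also lost without those 3 (limma, adjusted p = 0.139). Of the NRF2 target genes outside the 10, 16 were tested, and 1 passed with IL-4 in WT (6.25%, beside 10.7% of all genes) and 2 in WT stiff (12.5%, beside 10.6%). Their median log2 fold change in WT stiff was -0.44, beside 0.02 over all tested genes. This median averages unlike libraries. In WT stiff 1 all 16 lay below both WT soft libraries, but in WT stiff 2 only Pgd, Me1, Gsr and Abcc1 did. Prdx1 was at 589 TPM in WT stiff 1 and 3110 in WT stiff 2, against 2795 and 3095 in WT soft. G6pdx was at 76.1 and 185 TPM, against 179 and 173. A lower level of these targets as a set was thus not seen in both WT stiff libraries.

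The genes whose log2(TPM + 1) followed the members most closely over the 12 libraries were picked by Pearson's r, given here as a description, since the points share groups and a library moves all genes at once. For Tfrc they were Irf4 (r = 0.996), a transcription factor of alternatively activated macrophages, and Ddhd1 (r = 0.993). For Slc40a1 they were Gpx3 (0.993) and Cadm1 (0.991), for Fth1 Cybb (0.997) and Dock8 (0.997), for Slc11a1 Myo10 (0.994) and BC005537 (0.994), and for Cp Clec4n (0.991) and Ifi203 (0.987). Cybb encodes the membrane subunit of the phagocyte oxidase and Clec4n the receptor Dectin-2. For Ftl1 they were Fasn (0.990), the fatty acid synthase, and Tmem206 (0.989), for Slc11a2 Il2rg (0.979) and Ehd4 (0.969), for Hmox1 Gorasp2 (0.978) and Sec61a1 (0.975), for Hebp1 Cdc16 (0.944) and G2e3 (0.930), and for Ireb2 Thoc1 (0.903) and Senp7 (0.898). WT stiff 1 stood far from all other libraries in Ftl1 (21971 TPM, against 31634 or more). It also did so in Slc11a2 (30.8, against 44.9 or more) and Hebp1 (79.0, against 64.7 or less). How far the r values of these 3 genes rest on that library was not tested.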

How the data were processed

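RNA of BMDM was sequenced from directional polyA libraries. The authors deposited 1 table of TPM values with a total of 1000000 in each library; the submitters' processing notes name Trim Galore 0.6.7, Salmon 1.4.0 and mm10, while the study's methods describe STAR and featureCounts for its own tests, so the exact route to the TPM is not settled. The annotation, and how the 14098 genes were chosen, are not given in the sources used here, and no per-sample column was left out.

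Groups come from the sample labels. Genes of at least 1 TPM in at least 2 of 12 libraries (11194) entered limma (version 3.58.1, run in R 4.3.3) as log2(TPM + 1), with a mean for each of 6 groups, empirical Bayes with a trend, and Benjamini-Hochberg adjustment over all tested genes in each of 11 comparisons. On simulated data for stiff against soft in WT (11071 genes), 199 of 200 changed genes were recovered and 3 unchanged ones called. The planted log2 changes were 2 or 3, up or down, in genes with a mean log2(TPM + 1) above 3. Noise was independent, with the spread that limma had estimated, alike in all groups. Smaller changes, changes in low genes and unlike replicates as in WT stiff were not simulated, so recovery of these is unknown. The members and lists were chosen with earlier results of these data known, and p-values for them are to be read so. Named were all 10 members, listed genes past the threshold and at least 2-fold changed in the comparison, and for each member the 2 closest genes by correlation; Aco1 and the ferritin ratio were singled out after their values were seen. IRE matches use GENCODE vM21 transcripts. Alternatives were a pseudocount of 0.1, no filter, median-of-ratios scaling, only the groups compared, a replicate block, a 2-fold minimum, and leaving out libraries.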

Additional observations from a re-analysis of the deposited data

Results flagged for a closer look

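The response of Tfrc to the stiff matrix differed between the genotypes by the test of the interaction itself: its log2 fold change in KO minus that in WT was -1.45 (SE 0.164, limma, adjusted p = 0.0101), with both KO stiff libraries below both WT stiff libraries. The adjusted p in limma was 0.0856 with only the groups compared and 0.267 without the 3 libraries whose Camkk2 goes against the label. All 3 enter this comparison: WT soft 2 holds Camkk2 at a level seen in KO, and KO soft 1 and KO stiff 1 at a level seen in WT. The part of the labels in this difference was not tested.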

How the results depend on the processing

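Members past the threshold, with the count of the text first, were as follows. With IL-4 in WT, 5 became 3 under median-of-ratios scaling, 3 with a 2-fold minimum and 1 without the 3 libraries whose Camkk2 goes against the label; in KO, 2 became 6 with only the groups compared, 5 under the replicate block and 1 without those 3; over both genotypes, 6 became 3 with a 2-fold minimum and 3 without those 3. For stiff against soft in WT, 5 became 1 with only the groups compared and 1 without those 3; in KO, 1 became 0 in both settings. For KO against WT in stiff, 5 became 0 and 1, and for the interaction of genotype and stiffness 1 became 0 and 0, and 2 under the replicate block. Leaving out 1 library in turn gave 1 to 6 (IL-4, WT), 2 to 6 (IL-4, KO), 5 to 8 (both genotypes), 4 to 8 (stiff, WT), 0 to 1 (stiff, KO), 0 to 6 (WT stiff against soft+IL-4, the 6 without WT stiff 2), 1 to 7 (KO against WT, stiff) and 0 to 7 (interaction). Calls over all genes moved with these counts: leaving out 1 library gave 391 to 2568 genes (IL-4, WT), 375 to 2485 (IL-4, KO), 1650 to 3894 (both), 476 to 3064 (stiff, WT), 1 to 44 (stiff, KO), 0 to 3034 (WT stiff against soft+IL-4), 142 to 2786 (KO against WT, stiff) and 4 to 1784 (interaction), the 3034, 2786, 1784 and 3064 without WT stiff 2. With only the groups compared they were 1959 (IL-4, KO), 23 (stiff, WT), 2 (stiff, KO) and 0 (KO against WT, stiff, and interaction), and without the 3 libraries 134 (IL-4, WT), 206 (IL-4, KO), 804 (both), 152 (stiff, WT), 0 (stiff, KO), 20 (KO against WT, stiff) and 2 (interaction). The cause was not tested, except that a lone library is assumed to vary like the other groups. Tfrc passed with IL-4 and in WT stiff under every alternative run. Of 1330 values of single members under the alternatives, 80 lost and 31 gained a call; 71 changed sign, none of them past the threshold under either setting, and the largest such value was 0.64 on the log2 scale. The labels do not say that a replicate number marks a shared batch, and the numbers were not taken to pair the samples. Deviations of equal numbers correlated above 0.1 in 3 of 15 pairs of groups (0.28 to 0.31, among WT soft, KO soft and KO stiff, lowest of all -0.05). In those 3 groups alone, replicate 1 held far more Camkk2 than replicate 2. The values were 44.2 against 11.7 TPM in WT soft, 46.6 against 11.5 in KO soft and 37.7 against 10.0 in KO stiff. A shared component in those 3 groups, and its link to Camkk2, was not tested. Replicate 1 also had more genes at 0 and less Cp than replicate 2 in every group, and what the number stands for was not tested. Under the replicate block, Cp passed with IL-4 in KO (limma, adjusted p = 0.00788) and in the interaction with stiffness (0.0169), Slc11a1 and Fth1 with IL-4 in KO (0.0469 and 0.0436) and Slc11a2 in WT stiff (0.0472). With 2 libraries a group and no read depth, small differences in Slc11a2, Hebp1 and Ireb2 could not be resolved.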
